A study of Homo sapiens with 6 samples.

Results

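ATP-binding cassette (ABC) transporter genes were followed in OCI-AML2 cells, an established line of human acute myeloid leukaemia, that had received MRT199665 at 100 nM for 48 h or vehicle for the same time. The family was taken by name. It held every row of the deposited gene count table whose symbol was ABC, a letter from A to G and a number. Symbols with a P for pseudogene after the number were left out, and a pseudogene without that mark would have stayed in. The rule gave 46 genes of the 55765 rows, namely 12 in subfamily A, 9 in B, 12 in C, 4 in D, 1 in E, 3 in F and 5 in G. MRT199665 blocks MARK kinases according to the labels, and each group held 3 libraries made from the 3′ ends of messenger RNAs. Single-cell clones were grown, per the labels, and nothing in them says whether replicates are separate cultures, so each p-value reflects only how far these libraries differed, and that spread may be technical. The study's title names resistance to chemotherapy, and the comparison asked whether transcripts of drug efflux pumps and their relatives differed with the inhibitor.

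ABC proteins use the energy of ATP to move molecules across membranes. Subfamilies B, C and G hold the pumps best known for exporting anticancer drugs, among them ABCB1 (P-glycoprotein), ABCC1 (multidrug resistance protein 1) and ABCG2 (breast cancer resistance protein), whose activity in leukaemic blasts has long been studied as a cause of failed treatment. Other members move cholesterol and phospholipids, or serve mitochondria, peroxisomes and lysosomes. Those of subfamilies E and F span no membrane and act on ribosomes and translation.

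Total counts were 13446613, 5871097 and 14308650 in MRT199665 replicates 1 to 3, and 11851457, 11994657 and 9517907 in vehicle replicates 1 to 3. Levels are in CPM, counts divided by the library's total after TMM correction, and 1 count was worth 0.0709 to 0.169 CPM. Since 3′ libraries count an end of each transcript, CPM were not divided by length, and the order of levels between genes is approximate. MRT199665 replicate 2, the shallowest library, and vehicle replicate 2 lay at the ends of the first principal component (48.4 and -36.8). Of 8 myeloid markers 7 were detected and none was called, and erythroid markers had no count. The summed level of the myeloid markers was 767 to 827 CPM with MRT199665 and 685 to 697 CPM with vehicle. PTPRC alone averaged 405 CPM with MRT199665 and 372 CPM with vehicle. MPO, CD33, LYZ and CSF3R were higher without overlap, at edgeR unadjusted p under 0.05. Of all tested genes, 11.4% were higher without overlap and 7.64% were higher at that p. SPI1, PTPRC and ELANE overlapped, with log2 fold changes (MRT199665 over vehicle) of 0.05, 0.12 and -0.04. The part of these marker differences in the ABC values was not tested. The marker CEBPA and the macrophage gene CD68 had a count of 0 in all 6 libraries, and in GENCODE release 29 exons of other genes cover 100% and 82.9% of their last 500 bases per transcript. For CEBPA all of this overlap was on the other strand, and for CD68 overlap on the same strand covered 76.9%. MRC1 had a count of 0 without such overlap, and ABCF2 had 993 counts with MRT199665 with 57.8% covered. Whether overlap lowered any count was not tested, and a count of 0 where genes overlap is not read here as an absent transcript. For 34 of the 46 ABC genes no such overlap was found.

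Several of the best-known drug efflux pumps had no or almost no counts in either group, and none of the members with more counts passed the test. Of the 46 genes, 24 had enough counts to be tested. None was called higher or lower at a Benjamini-Hochberg adjusted p under 0.05 (edgeR quasi-likelihood test over 13053 genes), where 0.850% of all tested genes were called higher and 0.398% lower. The edgeR test gave 2 members (8.33%) an unadjusted p under 0.05, both higher, where 7.64% of all tested genes were higher at that p. DESeq2 called 1 member higher, where it called 1.56% of genes higher, and limma-voom called no member. Log2 fold changes (MRT199665 over vehicle) lay between -0.23 and 0.65, with a median of 0.06 against 0.006 over all tested genes, and 14 were positive and 10 negative. The 95% interval lay within a 2-fold change either way for 21 of the 24 members (87.5%), against 74.9% of all tested genes. The intervals of ABCB8, ABCD4 and ABCA8 reached beyond 2-fold.

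**Figure D1:**
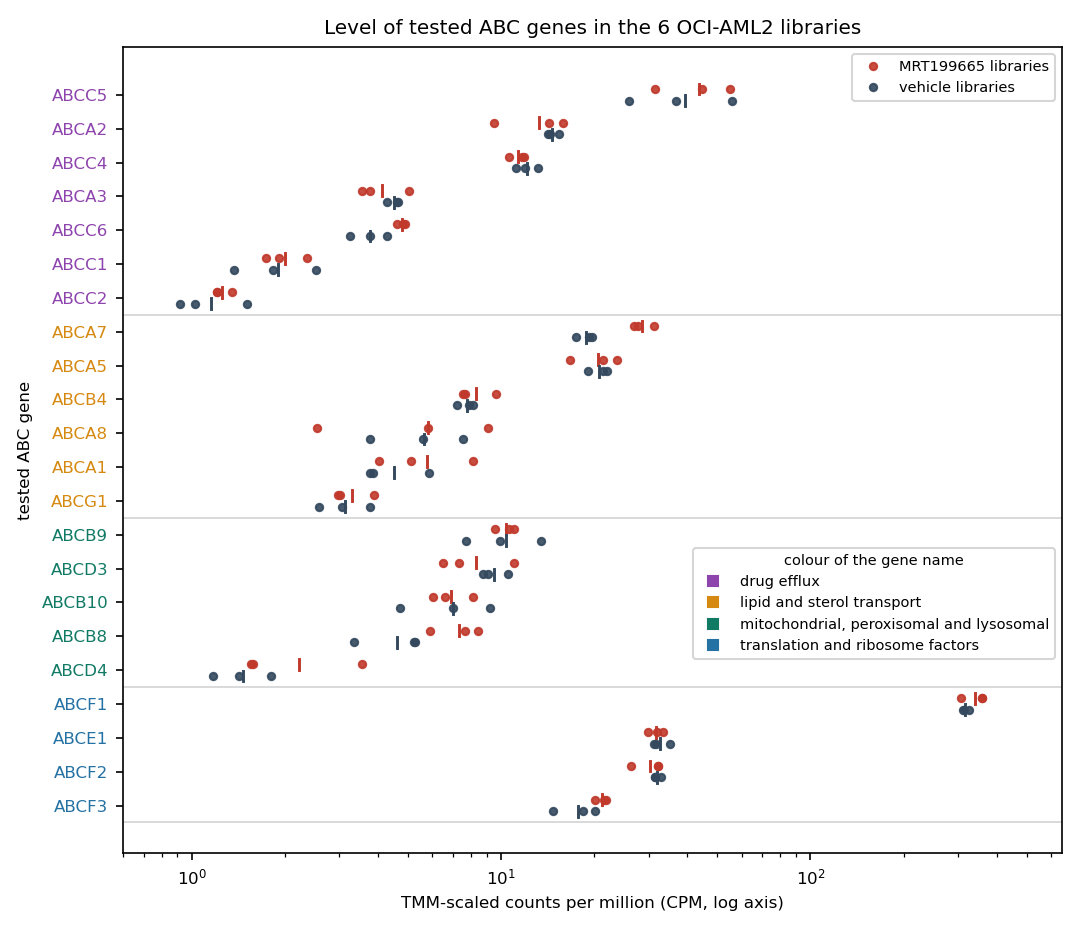
Level of 22 of the 24 tested ABC genes in TMM-scaled CPM (log axis), with 1 point per library, MRT199665 above vehicle, and a vertical bar at each group's mean. Points of both groups intermingle in most rows, and the MRT199665 points of ABCA7, at 26.9 to 31.3 CPM, lie apart from the vehicle points at 17.4 to 19.6 CPM.

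The stretch before the start of 4 genes is shown because these genes stand for the main contrasts of the family: ABCA7 had the lowest p, ABCC5 had the highest level of the drug efflux genes, and ABCB1 and ABCG2 are classical pumps with almost no counts. Each run holds the 250 bases before the RefSeq gene start in GRCh38.p14, a later build than that of the deposited counts, written 5′ to 3′ on the strand of the gene. Capitals mark CG dinucleotides, the sites at which vertebrate DNA is methylated. The windows are chr19:1039857-1040106 on the plus strand for ABCA7, chr3:184017885-184018134 on the minus strand for ABCC5, chr7:87600885-87601134 on the minus strand for ABCB1 and chr4:88158640-88158889 on the minus strand for ABCG2. Where RefSeq lists several starts, the one with the most CG is shown.
ABCA7: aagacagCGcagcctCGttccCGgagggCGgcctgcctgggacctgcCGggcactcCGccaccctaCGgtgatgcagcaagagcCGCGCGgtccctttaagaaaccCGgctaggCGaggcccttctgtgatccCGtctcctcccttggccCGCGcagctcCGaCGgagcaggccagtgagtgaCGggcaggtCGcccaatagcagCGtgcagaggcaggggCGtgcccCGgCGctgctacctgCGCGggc
ABCC5: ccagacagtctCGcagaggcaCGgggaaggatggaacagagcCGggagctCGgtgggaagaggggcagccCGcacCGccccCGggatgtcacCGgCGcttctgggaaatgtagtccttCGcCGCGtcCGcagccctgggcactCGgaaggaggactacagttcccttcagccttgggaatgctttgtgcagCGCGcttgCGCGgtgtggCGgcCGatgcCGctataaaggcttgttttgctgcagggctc
ABCB1: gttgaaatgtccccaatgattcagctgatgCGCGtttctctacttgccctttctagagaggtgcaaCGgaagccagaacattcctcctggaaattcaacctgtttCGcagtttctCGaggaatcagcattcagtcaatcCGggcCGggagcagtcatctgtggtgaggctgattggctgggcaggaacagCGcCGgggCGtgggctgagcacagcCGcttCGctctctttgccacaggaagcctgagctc
ABCG2: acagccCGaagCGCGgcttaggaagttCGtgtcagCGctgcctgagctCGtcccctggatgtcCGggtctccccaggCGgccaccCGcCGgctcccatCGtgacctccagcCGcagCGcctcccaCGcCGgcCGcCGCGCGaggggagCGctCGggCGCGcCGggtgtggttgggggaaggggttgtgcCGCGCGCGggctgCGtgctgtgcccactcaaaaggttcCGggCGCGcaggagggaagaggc
The window of ABCA7 held 25 CG dinucleotides, that of ABCC5 21, that of ABCB1 12 and that of ABCG2 32, so that ABCG2, with almost no counts, had more than ABCA7 and ABCC5. Of the other starts in RefSeq, that of ABCB1 had 1 CG and those of ABCG2 as few as 2. RefSeq windows were matched for 35 of the 46 genes. The median number of CG was 26.5 in the 18 tested members and 8 in the 17 that were not tested, against 12 over 27305 genes. These 27305 genes were taken with or without counts. No such values were computed for all tested genes alone, so a trait of tested genes in general cannot be told from one of this family. Fewer than 10 CG were found in 1 tested member, ABCC2, and in 10 of those not tested. The GC box, spelled GGGCGG on either strand, stood in 14 of 18 tested and 6 of 17 untested members and in 44.9% of all genes, taking for each gene the window with the most CG. By the same count the TATA box, spelled TATAAA on either strand, stood in 3 tested and 2 untested members and in 10.7% of all genes, and the CCAAT box, spelled CCAAT on either strand, in 3 tested and 5 untested members and in 32.4% of all genes. With every RefSeq window of a gene searched, the GC box stood in 14 tested and 7 untested members (46.2% of all genes), the TATA box in 3 tested and 3 untested members (13.05%), and the CCAAT box in 4 tested and 7 untested members (37.0%). DNA methylation was not measured here, and these counts describe the sequences only.

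**Figure D2:**
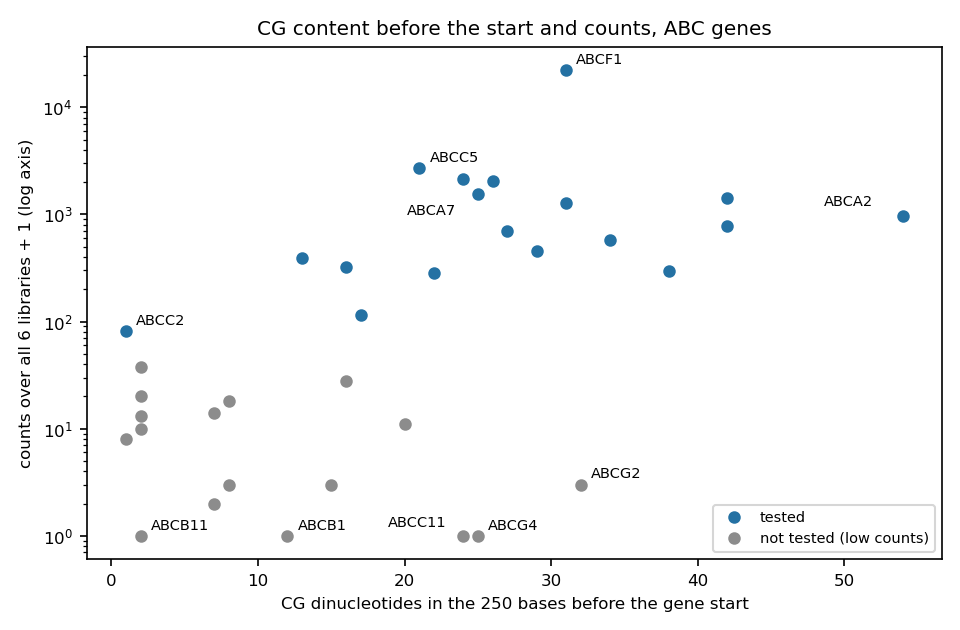
Number of CG dinucleotides in the 250 bases before the gene start (x axis) against counts summed over all 6 libraries plus 1 (y axis, log scale) for 35 ABC genes, blue where tested and grey where counts were too low. Tested genes lie mostly to the right, from 13 CG upward except ABCC2 at 1, while ABCG2 with 32 CG and ABCG4 with 25 CG had 2 and 0 counts.

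Among the drug efflux genes, the well-known pumps ABCB1 and ABCG2 gave no or hardly any counts, while ABCC1 had enough to be tested. ABCB1, which exports anthracyclines, vinca alkaloids and many other drugs, had a count of 0 in all 3 MRT199665 and all 3 vehicle libraries. This allows up to 0.0902 CPM over the MRT199665 libraries and 0.0898 CPM over the vehicle libraries, taking 3 counts as the limit of a count of 0, which covers counting error only. ABCG2, an exporter of topoisomerase inhibitors and other drugs, had no count with MRT199665 and 2 counts, both in replicate 1, with vehicle. ABCC3, a conjugate exporter of liver and gut, and ABCC11, which can export nucleotide analogues, were also at 0 in every library. ABCB5, a relative of ABCB1, had 1 count in each group. ABCC10 had 8, 2 and 4 counts with MRT199665 and 9, 2 and 2 with vehicle. None of ABCB1, ABCG2, ABCC3 and ABCB5 has exons of another gene over its last 500 bases in GENCODE release 29, while ABCC11 and ABCC10 have them over 3.44% and 2.73% of these bases. None of these pumps had enough counts to be tested, and a difference among such low levels was not detectable at this depth.

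The other 7 drug efflux genes were tested and none was called, with 4 positive and 3 negative log2 fold changes and a median of 0.04. ABCC5 (multidrug resistance protein 5), which exports cyclic nucleotides and nucleotide analogues, had the highest level, at 31.4, 54.8 and 44.7 CPM in MRT199665 replicates 1 to 3 and at 55.6, 25.9 and 36.7 CPM in vehicle replicates 1 to 3. The values of each group spanned nearly the whole range of the other, with MRT199665 replicate 1 and vehicle replicate 2 low. Its log2 fold change was 0.14 ± 0.29 (SE), with a 95% interval from -0.52 to 0.79, and it was -0.051 without MRT199665 replicate 2, -0.10 without vehicle replicate 2 and -0.28 with both of these left out. ABCC4 (multidrug resistance protein 4), a further exporter of nucleotide analogues and of cyclic AMP, was steadier, at 11.9, 11.7 and 10.6 CPM with MRT199665 and 12.0, 11.2 and 13.1 CPM with vehicle. The groups of ABCC4 overlapped, and its log2 fold change of -0.09 had a 95% interval from -0.41 to 0.24, which corresponds to at most 1.33-fold lower or 1.18-fold higher.

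ABCC1, which exports glutathione conjugates and anthracyclines, was scarce, at 1.74, 2.37 and 1.91 CPM with MRT199665 and 2.52, 1.37 and 1.83 CPM with vehicle. These values rest on 14 to 30 counts per library and overlapped fully, with a log2 fold change of 0.04 and an interval from -0.67 to 0.74. ABCC2, an apical conjugate exporter of liver, had 16, 8 and 17 counts with MRT199665 and 18, 12 and 9 with vehicle, the lowest level among the tested members. The groups of ABCC2 overlapped, and its interval ran from 1.55-fold lower to 1.77-fold higher.

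ABCA2, a lysosomal lipid transporter that has been tied to estramustine resistance, stood at 14.4, 9.47 and 15.9 CPM with MRT199665 and 14.2, 15.4 and 14.3 CPM with vehicle. Its MRT199665 replicate 2 lay below all others, and the log2 fold change of -0.12 became 0.047 without that library. ABCA3, a lipid transporter of lamellar bodies and lysosomes that has been studied in drug sequestration by leukaemia cells, was at 3.78, 3.55 and 5.03 CPM with MRT199665 and 4.61, 4.63 and 4.27 CPM with vehicle. The groups overlapped, and the log2 fold change of ABCA3 was -0.11 ± 0.21 (SE). ABCC6, which mediates release of ATP from liver cells, was at 4.83, 4.90 and 4.61 CPM with MRT199665 and 3.78, 3.26 and 4.27 CPM with vehicle, so that its groups did not overlap. Its difference was small (log2 fold change 0.34 ± 0.20, SE, edgeR adjusted p = 0.484), and pseudogenes share its sequence: ABCC6P1 had 11 counts with MRT199665 and 15 with vehicle against 158 and 125 for ABCC6. Summed over the 13 drug efflux genes, the level averaged 80.8 ± 9.74 CPM in MRT199665 libraries and 77.9 ± 16.2 CPM in vehicle libraries (SD, n = 3 each), a difference smaller than either spread.

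**Figure D3:**
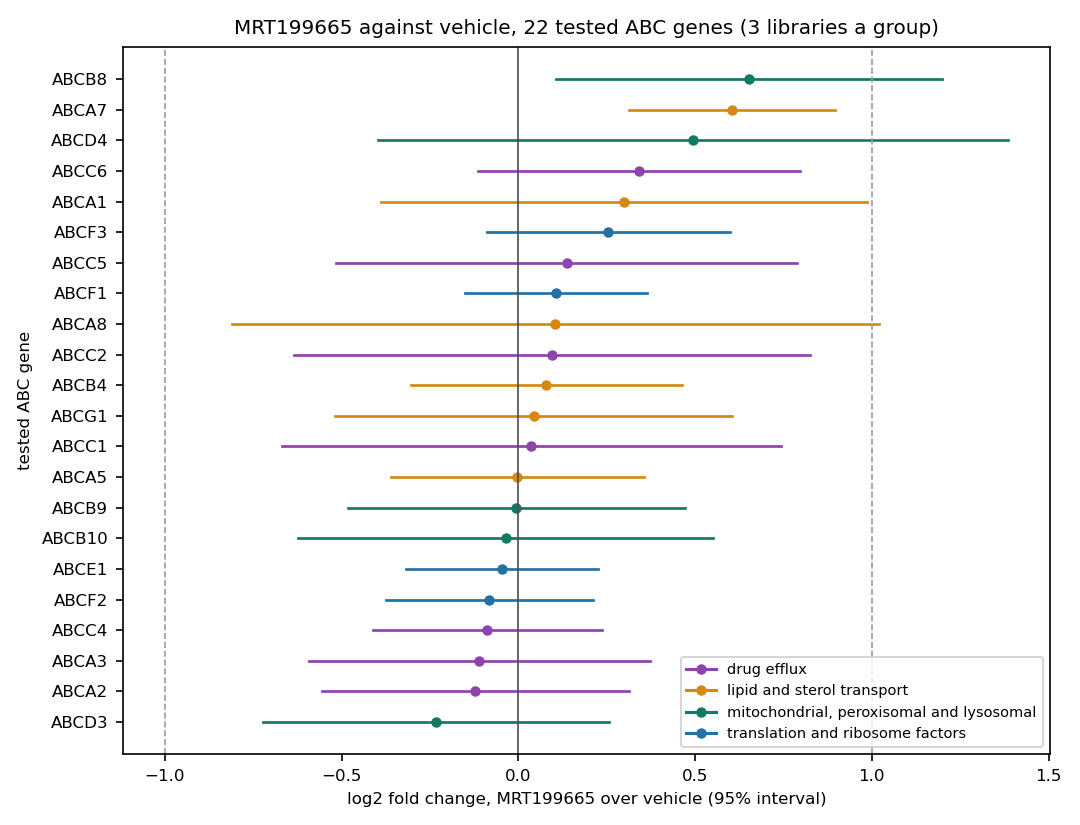
Log2 fold change (MRT199665 over vehicle) of 22 of the 24 tested ABC genes with its 95% interval, coloured by role; dashed lines mark a 2-fold change either way. The intervals of ABCA7 (0.31 to 0.90) and ABCB8 (0.11 to 1.20) lie above 0 without adjustment for the number of genes, and the other 20 shown include 0.

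Of the lipid and sterol transporters, 6 of 16 were tested, none was called, 5 had positive log2 fold changes and the median was 0.09. ABCA7, which moves phospholipids and promotes phagocytosis, was the member with the lowest p. It stood at 26.9, 31.3 and 27.6 CPM in MRT199665 replicates 1 to 3 and at 19.2, 17.4 and 19.6 CPM in vehicle replicates 1 to 3, so each MRT199665 library lay above each vehicle library. Means were 28.6 ± 2.35 CPM in MRT199665 libraries and 18.8 ± 1.18 CPM in vehicle libraries (SD, n = 3 each), a 1.52-fold difference with a 95% interval from 1.24 to 1.86. With edgeR the log2 fold change of 0.60 ± 0.13 (SE) had an unadjusted p of 0.00124 and an adjusted p of 0.0715, which missed the threshold. In RNA from whole cultures, more cells with a transcript and more of it per cell cannot be told apart. DESeq2 called ABCA7 (adjusted p = 0.0348), where it called 1.56% of genes higher, and so did edgeR without a low-count filter (0.0481, where 1.32% were called higher). Over all 14 alternatives its log2 fold change was between 0.49 and 0.64, with adjusted p between 0.0348 and 0.424. Summed over the 16 lipid and sterol transporters, the level was 78.0, 74.0 and 70.8 CPM with MRT199665 and 61.6, 62.8 and 61.0 CPM with vehicle, without overlap, and ABCA7 made up most of that gap. No exon of another gene covers the last 500 bases of ABCA7 transcripts in GENCODE release 29.

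**Figure D4:**
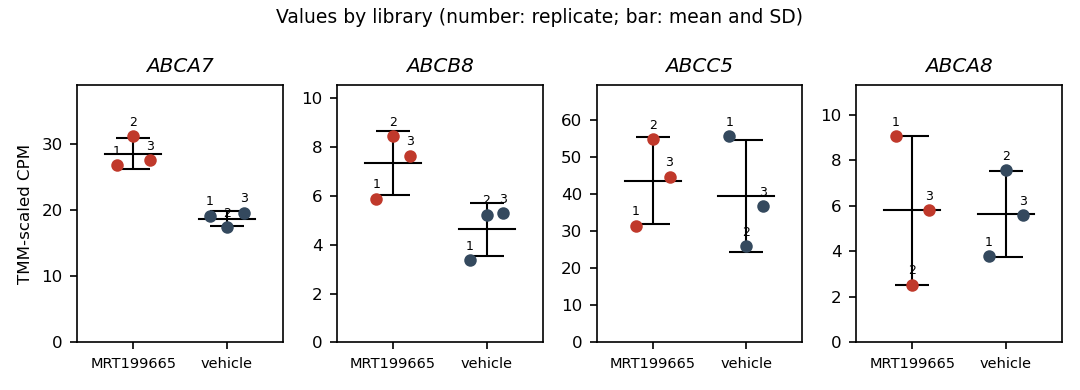
CPM of ABCA7, ABCB8, ABCC5 and ABCA8 in each library, numbered by replicate, with MRT199665 left of vehicle and bars for the mean and SD of 3 libraries. The groups are apart for ABCA7 and ABCB8, and overlap for ABCC5 and ABCA8, where the spread within a group exceeds the difference between the means.

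ABCA1 and ABCG1, which pass cellular cholesterol to apolipoprotein A-I and to high-density lipoprotein, are abundant in macrophages and are induced by the liver X receptors. ABCA1 was at 5.13, 8.11 and 4.04 CPM with MRT199665 and 5.87, 3.78 and 3.87 CPM with vehicle. MRT199665 replicate 2 was the highest library of ABCA1 and the other libraries overlapped, with a log2 fold change of 0.30 ± 0.30 (SE) that was -0.11 with MRT199665 replicate 2 and vehicle replicate 2 left out. ABCG1 was at 3.02, 3.89 and 2.98 CPM with MRT199665 and 3.78, 2.57 and 3.05 CPM with vehicle, overlapping throughout, with a log2 fold change of 0.04 and an interval from -0.52 to 0.60. Of 6 monocyte and macrophage markers 3 were tested, all with positive log2 fold changes. Of these, 2 (CSF1R and CYBB) were called higher, where 0.850% of all tested genes were. The summed level was 343 to 353 CPM with MRT199665 and 145 to 161 CPM with vehicle. CYBB alone averaged 305 CPM with MRT199665 and 143 CPM with vehicle. CD14 had 28 counts with MRT199665 and 19 with vehicle, and CD68 and MRC1 were at 0. The part of these marker differences in the values of ABCA7, ABCA1 and ABCG1 was not tested.

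ABCA5, a transporter of late endosomes and lysosomes, had 23.8, 16.7 and 21.3 CPM with MRT199665 and 21.3, 22.0 and 19.1 CPM with vehicle. Its means were nearly equal, with a log2 fold change of -0.0027 ± 0.16 (SE) and an interval from -0.36 to 0.35. In GENCODE release 29, exons of ABCA10 cover 5.71% of its last 500 bases. ABCA8, a lipid transporter whose gene lies in a cluster with ABCA5, varied most among the tested members, at 9.06, 2.54 and 5.81 CPM with MRT199665 and 3.78, 7.55 and 5.60 CPM with vehicle. The log2 fold change of ABCA8 was 0.10 ± 0.40 (SE), turned to -0.34 without MRT199665 replicate 1 and to -0.11 without vehicle replicate 1, and was 0.40 without MRT199665 replicate 2. ABCB4, the phosphatidylcholine floppase of bile canaliculi, was at 7.55, 9.63 and 7.65 CPM with MRT199665 and 7.21, 7.89 and 8.14 CPM with vehicle, also overlapping (interval -0.30 to 0.46). Of the lipid transporters that were not tested, ABCA4, ABCB11 and ABCG4 were at 0 in all libraries, and the others had few counts, the most in ABCA10 (23 with MRT199665 and 14 with vehicle), ABCA6 (14 with MRT199665 and 5 with vehicle) and ABCG5 (9 with MRT199665 and 8 with vehicle). ABCA9, ABCA12, ABCA13 and ABCG8 had between 0 and 7 counts per group.

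Members of mitochondria, peroxisomes and lysosomes were expressed at low to moderate levels, and none of the 7 tested was called, with 3 positive and 4 negative log2 fold changes and a median of -0.01. ABCB8, a mitochondrial inner membrane transporter tied to iron handling, had 5.89, 8.45 and 7.65 CPM with MRT199665 and 3.36, 5.23 and 5.29 CPM with vehicle, without overlap. Its 1.57-fold difference (log2 fold change 0.65 ± 0.24, SE) had an unadjusted p of 0.0244 and an edgeR adjusted p of 0.255, and no alternative called it (lowest adjusted p = 0.210, highest 0.533). Its log2 fold change lay between 0.46 and 0.79 over these alternatives, and exons of a gene on the other strand cover 4.87% of its last 500 bases. ABCB10, which acts in haem synthesis, averaged 6.92 ± 1.07 CPM in MRT199665 libraries and 6.99 ± 2.25 CPM in vehicle libraries (SD, n = 3 each). ABCB9, a lysosomal peptide transporter related to TAP, averaged 10.4 ± 0.741 CPM in MRT199665 libraries and 10.4 ± 2.87 CPM in vehicle libraries (SD, n = 3 each). For both, vehicle replicate 1 was the highest library. ABCB6, a porphyrin transporter, had 4, 0 and 5 counts with MRT199665 and 1, 0 and 0 with vehicle. Exons of another gene cover 74.8% of the last 500 bases of ABCB6 transcripts in GENCODE release 29, so its counts may be incomplete.

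Among the half-transporters of subfamily D, the peroxisomal ABCD3, which imports branched-chain fatty acids and bile acid precursors, had the most negative log2 fold change of the family, -0.23 ± 0.22 (SE), at 7.32, 10.99 and 6.52 CPM with MRT199665 and 10.6, 9.09 and 8.75 CPM with vehicle. MRT199665 replicate 2 was the highest library of ABCD3 and the other 2 MRT199665 libraries were the lowest, so the groups overlapped. ABCD4, which acts in the release of cobalamin from lysosomes, rested on 14 to 22 counts per library and was at 1.59, 3.55 and 1.56 CPM with MRT199665 and 1.17, 1.80 and 1.42 CPM with vehicle. Its log2 fold change of 0.49 ± 0.39 (SE) was 0.10 without MRT199665 replicate 2, which stood above all other libraries, and exons of another gene on the same strand cover part of its last 500 bases. ABCD2 had 8 counts with MRT199665 and 5 with vehicle.

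The ribosome and translation factors had the smallest SEs of the family as a group, between 0.11 and 0.15, and none of the 4 was called, with 2 positive and 2 negative log2 fold changes. ABCF1, which binds initiation factor eIF2, had the highest level of all ABC genes and took between 46.0% and 52.9% of the family's summed counts. It stood at 357, 307 and 358 CPM with MRT199665 and 312, 313 and 326 CPM with vehicle, with MRT199665 replicate 2 below all vehicle libraries and the other 2 above them. Its log2 fold change of 0.11 ± 0.11 (SE) had the smallest SE of the tested members, and the interval from -0.15 to 0.36 allows at most a 1.29-fold higher level. ABCE1, the ribosome recycling factor, was at 31.9, 33.5 and 29.8 CPM with MRT199665 and 35.1, 31.7 and 31.2 CPM with vehicle (interval -0.32 to 0.23), again overlapping. ABCF2 averaged 30.2 ± 3.44 CPM in MRT199665 libraries and 32.0 ± 0.786 CPM in vehicle libraries, and ABCF3 averaged 21.2 ± 0.872 CPM in MRT199665 libraries and 17.8 ± 2.80 CPM in vehicle libraries (SD, n = 3 each). The lowest MRT199665 library of ABCF3, at 20.20 CPM, lay just above the highest vehicle library, at 20.16 CPM, and its log2 fold change of 0.25 ± 0.15 (SE) had an edgeR adjusted p of 0.490. For ABCF2, exons of another gene on the same strand cover 57.8% of the last 500 bases in GENCODE release 29.

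In all, 4 of 24 tested members (16.7%) had every MRT199665 library above every vehicle library, namely ABCA7, ABCB8, ABCC6 and ABCF3, where 11.4% of all tested genes did. No member had every MRT199665 library below every vehicle library, where 10.8% of all tested genes did. An unadjusted p under 0.05 was reached by 2 of 24 members upward (8.33%, against 7.64% of all tested genes) and by 0 of 24 downward (against 7.11%). With 24 genes, these shares are given as a description beside those of all tested genes. The family's summed level was 676, 667 and 683 CPM with MRT199665 and 668, 610 and 637 CPM with vehicle, which overlapped. By library, MRT199665 replicate 2 was the highest or lowest of the 6 for 14 of the 24 members (58.3%, against 48.7% of all tested genes). For vehicle replicate 1 this held for 12 members (50%, against 38.5% of all tested genes).

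The channel regulator ABCC8, a sulfonylurea receptor of beta cells, was at 0 in all libraries, and ABCC9 had 2 counts, both in MRT199665 replicate 1. ABCC12 had 1 count in all and ABCC13 had 10 counts with MRT199665 and 11 with vehicle. In total 7 of the 46 genes had no count in any library.

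Genes that work with ABC transporters were listed by pathway (67 genes, of which 59 were tested), and none was called. The list held 3 genes with an unadjusted p under 0.05 upward and 6 downward, or 5.08% and 10.2% of those tested, against 7.64% and 7.11% of all tested genes. The lowest p belonged to TAP2, a superfamily member under another symbol. TAP2, which with TAP1 moves antigenic peptides into the endoplasmic reticulum, was at 18.0, 16.9 and 24.1 CPM with MRT199665 and 49.8, 36.0 and 33.4 CPM with vehicle, without overlap (log2 fold change -1.01 ± 0.20, SE, edgeR adjusted p = 0.0553). TAP1 had a log2 fold change of -0.22 ± 0.20 (SE), and the chloride channel gene CFTR was at 0 in all libraries.

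Of 10 haem and iron-sulfur genes around ABCB10 and its relatives, 6 had negative log2 fold changes, and those with the lowest p were CPOX and ALAS1. CPOX, a late enzyme of haem synthesis, was at 3.32, 2.70 and 3.33 CPM with MRT199665 and 11.4, 5.49 and 6.01 CPM with vehicle (log2 fold change -1.27 ± 0.31, SE, edgeR adjusted p = 0.103). ALAS1, the first enzyme of that pathway, was at 2.57, 3.38 and 3.33 CPM with MRT199665 and 7.38, 3.95 and 4.48 CPM with vehicle (adjusted p = 0.255). Both had no overlap between the groups, and vehicle replicate 1 was the highest library of each.

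In the drug resistance list, with 12 of 14 genes tested, 6 were positive and 6 negative. MVP, the major vault protein, was at 13.2, 16.4 and 10.4 CPM with MRT199665 and 5.62, 8.84 and 10.6 CPM with vehicle (log2 fold change 0.66 ± 0.26, SE, edgeR adjusted p = 0.276), and the groups overlapped. KEAP1, which holds the stress regulator NRF2 in check, was at 49.3, 74.9 and 53.1 CPM with MRT199665 and 45.7, 41.4 and 45.4 CPM with vehicle (adjusted p = 0.297). In the cholesterol efflux and liver X receptor list, with 11 of 14 genes tested, RXRB and PPARD had the lowest p, with log2 fold changes of 0.13 ± 0.14 and -0.30 ± 0.35 (SE) and edgeR adjusted p of 0.712 and 0.754. The lowest adjusted p was 0.658 among 10 peroxisome genes, 0.689 among 4 tested cobalamin genes, 0.174 (HBS1L, a ribosome rescue factor, log2 fold change -0.40 ± 0.12, SE) among 9 ribosome recycling and initiation genes, and 0.313 for KCNJ11, the pore partner of ABCC8, whose groups overlapped (log2 fold change -0.59 ± 0.25, SE).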

How the data were processed

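The authors' deposited table holds raw counts per gene symbol for 6 libraries, not normalized, as tested on its values. Tools named in the submitters' processing notes are STAR (2.4), HTSeq (0.6.1) and DESeq2, and the build is hg19. The annotation, strand setting and read filters are not given in the sources used here, and reads of genes with close copies or overlapping exons may be split or lost. Groups and replicate numbers come from the labels.

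All genes were tested with edgeR 4.0.16 (R 4.3.3, glmQLFit and glmQLFTest, TMM, group as the only term) after filterByExpr (minimum count 10, minimum total 15), which left 13053 of 55765 genes. Calls used a Benjamini-Hochberg adjusted p under 0.05 over these genes, two-sided. The SE is the size of the log2 fold change divided by the square root of F, and 95% intervals use the test's degrees of freedom. Depth was 5871097 to 14308650 counts. Alternatives were DESeq2 1.42.0, limma-voom (limma 3.58.1), other scalings and filters, the replicate block and leaving out libraries. The script was tested on simulated data. Libraries of a group differed by a chi-square of at least 8.59 per degree of freedom, so none was a copy.

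The family, roles and partner lists were chosen with earlier results of these data known. The naming rule took every tested member (2 are not reported singly here but are in all counts and sums), and in each partner list the called genes and up to 2 others with the lowest p. The sequences printed were chosen after the values were seen, in place of protein stretches. Sequences are from RefSeq (GRCh38.p14); the match of 3′ ends used GENCODE release 29, and neither gives coordinates of the counts.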

Additional observations from a re-analysis of the deposited data

How the results depend on the processing

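No ABC gene was called lower in any of the 14 alternatives, and 1, ABCA7, was called higher by DESeq2 and by edgeR without a low-count filter, which count 1 each. Over all genes, where edgeR with the filter called 111 higher and 52 lower, the counts were 373 and 271 without a low-count filter, 197 and 150 with DESeq2, 7 and 5 with the replicate block, and 29 to 78 higher and 20 to 55 lower without 1 library. Deviations from the group means correlated at -0.55, -0.47 and 0.018 between same-numbered libraries. The highest values were 0.53 (MRT199665 replicate 1 with vehicle replicate 2) and 0.48 (MRT199665 replicate 2 with vehicle replicate 1). With 3 libraries a group, these values cannot decide whether shared numbers mark a shared culture or day. In edgeR with the replicate block ABCA7 had an adjusted p of 0.424. Of the 22 tested members described singly, 9 kept 1 sign in every alternative and 13, none of them called, did not. With MRT199665 replicate 2 and vehicle replicate 2 both left out, the log2 fold change turned to -0.11 for ABCA1, 0.080 for ABCA2, 0.15 for ABCA5, -0.015 for ABCB4, -0.27 for ABCC1, -0.035 for ABCC2, -0.28 for ABCC5 and -0.20 for ABCG1. With limma-voom it was 0.0038 for ABCA5 and 0.012 for ABCB9, and with the replicate block 0.030 for ABCB9. Without 1 library, members that changed sign ranged from -0.29 to 0.047 (ABCA2), -0.12 to 0.12 (ABCA5), -0.34 to 0.40 (ABCA8), -0.27 to 0.22 (ABCB10), -0.026 to 0.14 (ABCB4), -0.18 to 0.22 (ABCB9), -0.17 to 0.30 (ABCC1), -0.035 to 0.34 (ABCC2), -0.10 to 0.47 (ABCC5), -0.084 to 0.0060 (ABCE1), -0.15 to 0.0095 (ABCF2) and -0.094 to 0.20 (ABCG1). The cause was not tested. Members at few CPM allow only large differences to be seen, and of the 22 members with low counts, 15 were tested without the filter, DESeq2 gave none of them an adjusted p, and 7 without any count could not be tested.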
